A study of Homo sapiens with 2 samples.

Results

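ARIH2 and ARIH1 are human ubiquitin ligases of the Ariadne group. Their members here are the rows of all 5 event tables of both libraries that carry the Ensembl identifier of either gene. ARIH2 (ENSG00000177479) accounted for 77 of the 42783 events listed for the DCRT-KO library and 35 of the 35307 listed for the WT library. ARIH1 (ENSG00000166233) had 0 events of any type in both libraries, so 1 of the 2 genes is described by its absence from the lists. The 2 genes were chosen by name, with their numbers of events in these libraries in view, so those numbers are given as a description and no test was made.

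The samples were AC16 cells, an established human cell line whose labels give heart as the tissue and cardiomyocytes as the cell type, with 1 library of genotype WT and 1 of cells in which the long non-coding RNA DCRT was knocked out by CRISPR-Cas9. The study asked how loss of DCRT goes with alternative splicing. The files list events and name the isoforms (transcript models with names of that library) that carry each of the alternative forms, with no read number and no inclusion level. Depth is therefore unknown, and with 1 library per genotype nothing below has a replicate check. The number of knockout clones behind the library is not stated in the labels or the series text. Of 15 markers of cardiomyocytes 13 had no event in either library, among them TNNT2, MYH6, MYH7, ACTN2 and TTN, and the other 2 had 3 events in WT. The lists also differed in other cell markers, with 513 WT and 3 DCRT-KO events over 10 fibroblast markers and 22 WT and 79 DCRT-KO events over 6 epithelial markers. Of the fibroblast markers 7 had more in WT, 1 (PDGFRA) more in DCRT-KO and 2 no event, and COL1A1 alone held 405 of the WT events. Of the epithelial markers 3 had more in DCRT-KO, while EPCAM, CDH1 and KRT19 had no event in either library. The part of these differences in the ARIH2 values was not tested.

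Ariadne ligases belong to the RING-between-RING (RBR) class of ubiquitin ligases, which take ubiquitin from a conjugating enzyme such as UBE2L3 onto their own catalytic cysteine before passing it to a substrate. ARIH2 and ARIH1 are held inactive by their own C-terminal Ariadne domain. Both are switched on by binding a cullin-RING ligase that carries the ubiquitin-like protein NEDD8. ARIH2 pairs with complexes built on CUL5, and ARIH1 with complexes built on several other cullins.

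ARIH2 lies on the plus strand at chr3:48918821-48986382 (GRCh38), a span of 67562 bases with 31 transcripts in GENCODE release 29. The reading frame of its annotated transcript ENST00000356401 is 493 codons long and opens in an exon of 352 bases (chr3:48927462-48927813). ARIH1 lies at chr15:72474326-72602985 on the plus strand, with 10 annotated transcripts. Sequences below come from the GENCODE transcripts and are written along the transcript. The coding part of the 352-base exon is shown because both libraries held isoforms without it. Capitals mark the start codon and, further on, a stretch of 105 bases that 1 DCRT-KO isoform lacked.
Coding part of the start codon exon, chr3:48927559-48927813: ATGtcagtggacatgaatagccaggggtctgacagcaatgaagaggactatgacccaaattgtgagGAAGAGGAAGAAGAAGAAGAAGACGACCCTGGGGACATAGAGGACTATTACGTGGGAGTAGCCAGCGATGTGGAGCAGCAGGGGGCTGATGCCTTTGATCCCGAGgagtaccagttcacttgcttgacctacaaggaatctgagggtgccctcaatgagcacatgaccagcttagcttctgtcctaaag
An exon of 46 bases (chr3:48945136-48945181) lies between that exon and the next coding exon and is absent from ENST00000356401. It is shown joined to the start of the next coding exon (chr3:48961612-48961631), with the first in-frame stop codon of the joined sequence in capitals.
46-base exon and start of the next coding exon: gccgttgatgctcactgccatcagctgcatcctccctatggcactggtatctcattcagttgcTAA
The next 2 coding exons are shown because each was left out of some isoforms in both libraries, and the 31-base exon because it was listed in DCRT-KO alone.
Coding exon of 68 bases, chr3:48961612-48961679: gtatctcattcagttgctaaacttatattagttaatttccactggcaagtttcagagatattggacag
Coding exon of 64 bases, chr3:48964919-48964982: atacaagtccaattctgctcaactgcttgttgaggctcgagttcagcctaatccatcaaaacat
Exon of 31 bases, chr3:48949066-48949096: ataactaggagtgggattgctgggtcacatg

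Skipped and mutually exclusive exons made up most ARIH2 events in both libraries, and DCRT-KO listed more of each. Skipping of an internal exon was found in 41 DCRT-KO and 21 WT rows. Mutually exclusive exons, where each isoform named in the row has either of a pair of exons but not both, filled 25 rows of DCRT-KO and 7 of WT. Isoforms not named in the row are not covered by it. Alternative acceptors, which move the start of an exon, numbered 6 in DCRT-KO and 3 in WT. Alternative donors, which move its end, numbered 2 and 1. Events of intron retention, called retained introns below, filled 3 rows in each library, at 3 positions in DCRT-KO and 2 in WT. Of the stretches concerned, only that of 2622 bases is an intron in GENCODE release 29. The rarer form rested on a single isoform in 49 of the 77 DCRT-KO and 29 of the 35 WT events. With at least 2 library isoforms asked of each form, 28 and 5 events were left, which is 36.4% of the DCRT-KO and 14.3% of the WT events of ARIH2. Over all genes, not matched to ARIH2 in number of isoforms, 13.0% of DCRT-KO and 11.3% of WT events met this.

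**Figure D1:**
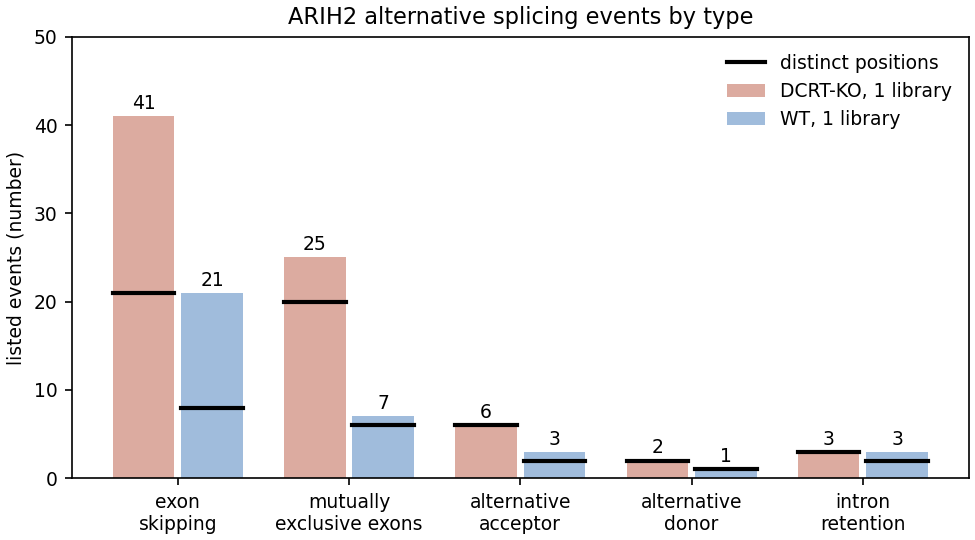
Number of ARIH2 events (y axis) by event type (x axis) in the DCRT-KO and the WT library, 1 library each; black lines give the number of distinct positions among them. DCRT-KO lists 41 skipping events at 21 positions and WT lists 21 at 8 positions. Intron retention has 3 events in each, at 3 positions in DCRT-KO and 2 in WT.

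With 1 added to each number, the DCRT-KO to WT ratio was 2.17 over all types, 1.91 for exon skipping, 3.25 for mutually exclusive exons, 1.75 for acceptors, 1.5 for donors and 1.0 for retained introns. A ratio of at least 1.5 in favour of DCRT-KO was found in 44.0% of the 8028 genes with any event. The background was 48.0% of genes for exon skipping, 56.9% for mutually exclusive exons, 45.5% for acceptors, 46.0% for donors and 39.8% for retained introns. In favour of WT the shares were 30.4% over all types, 26.5% for exon skipping, 30.2% for mutually exclusive exons, 31.6% for acceptors, 33.5% for donors and 40.2% for retained introns. These shares are the background to the ARIH2 ratios, and since the same numbers chose the gene nothing is read from the comparison. The differences in events were also known when the gene was chosen. By difference ARIH2 stood at rank 17 of 8028 genes over all types, level with other genes. It stood at rank 2 of 6695 for exon skipping and, level with another gene, at rank 1 of 1496 for mutually exclusive exons. Its ranks were 173 of 4088 for acceptors, 516 of 3435 for donors and 2101 of 4726 for retained introns, each level with many genes.

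DCRT-KO listed more ARIH2 isoforms as well as more events. For ARIH2, DCRT-KO events named 65 isoforms and WT events 24, a ratio of 2.71. All events of the libraries named 54197 isoforms in DCRT-KO and 49374 in WT. The ratio of ARIH2 events was 2.2 with every row counted and 2.74 with each position counted once. It was 5.6 with both forms held by at least 2 library isoforms. The numbers that follow are again those of ARIH2 unless other genes are named. There were 1.18 events per isoform in DCRT-KO and 1.46 in WT, and 0.80 and 0.792 with each position counted once. The part of isoform number in the difference in events was not tested. Among genes with at least 24 isoforms the median with every row counted was 0.662 in the 380 such DCRT-KO genes and 0.56 in the 334 such WT genes. The minimum of 24 is the ARIH2 number in WT, below its 65 in DCRT-KO. These genes were thus not matched to ARIH2 in number of isoforms. Mutually exclusive exons were 32.5% of ARIH2 events in DCRT-KO (exact 95% interval 22.2 to 44.1) and 20.0% in WT (8.44 to 36.9), against 4.70% and 3.71% of all events of those libraries. The shares were 38.5% and 31.6% with each position counted once, and 17.9% (5 of 28) and 20.0% (1 of 5) with both forms held by at least 2 library isoforms, so their order depended on the support asked for. Intervals here and below treat events or isoforms as independent draws, cover counting error only and do not compare the genotypes. In DCRT-KO 3 of the 380 genes, ARIH2 among them, reached its share of mutually exclusive exons. In WT 14 of the 334 genes reached its share there. Both numbers were taken with every row counted. Since the gene was chosen with its numbers of events in view, nothing is read from them.

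**Figure D2:**
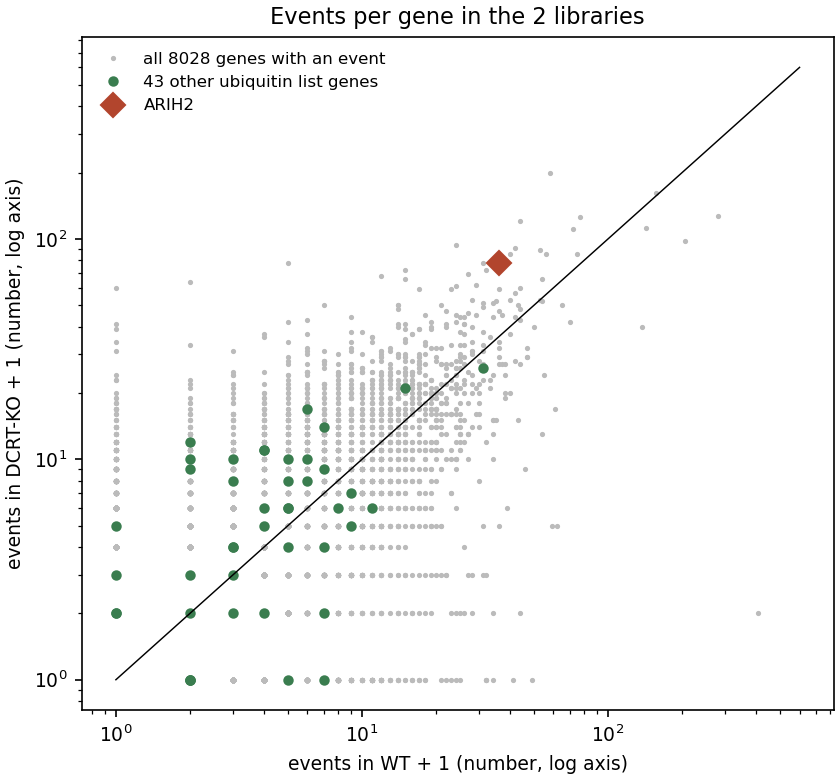
Events per gene plus 1 in WT (x axis, log) against DCRT-KO (y axis, log), 1 point per gene for all 8028 genes, with ARIH2 as a diamond, 43 other genes of ubiquitin transfer and cullin control in green and a line where both are equal. ARIH2, with 77 and 35 events, lies above the line and holds more events in each library than any of the green genes.

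Nearly every ARIH2 position listed in WT was listed in DCRT-KO as well. The 77 DCRT-KO events lay at 52 distinct combinations of type and positions and the 35 WT events at 19, because an exon can be listed again with other neighbours. Of these, 17 were common, which is 89.5% of the WT and 32.7% of the DCRT-KO positions. Over all genes 11157 positions were common, 33.4% of those in WT and 28.0% of those in DCRT-KO. These genes were not matched to ARIH2 in number of isoforms. All 8 skipping positions and all 6 mutually exclusive pairs of WT recurred in DCRT-KO. The 2 WT positions without a DCRT-KO match were an alternative donor, joining the ends of the 122-base and 352-base exons, and a removed stretch of 99 bases in a late coding exon.

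Most ARIH2 events lay ahead of the second coding exon. In DCRT-KO 54 of 77 events (70.1%) ended before its first base at 48961612, and in WT 29 of 35 (82.9%). The stretch ahead of that base makes up 63.3% of the bases of the gene. Events lie at exons and splice sites, so this share of bases is no background to the shares of events. Neither of the 2 DCRT-KO alternative donors lay in this stretch. The annotated exons in this stretch are short non-coding leader exons, the 352-base exon with the start codon and the small internal exons shown above. Below, unless stated otherwise, an exon's isoforms are those listed with or without it in any skipping or mutually exclusive event, and isoforms are models, not reads, so their numbers are not inclusion levels.

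The leader exons of ARIH2 were skipped in both libraries. A leader exon of 64 bases (48922748 to 48922811), part of ENST00000356401, was carried by 40 of 51 DCRT-KO isoforms (78.4%, exact 95% interval 64.7 to 88.7) and 13 of 16 WT isoforms (81.2%, 54.4 to 96.0). An exon of 122 bases (48924718 to 48924839), used by ENST00000449376 but not by ENST00000356401, was carried by 12 of 42 in DCRT-KO (28.6%, 15.7 to 44.6) and 10 of 18 in WT (55.6%, 30.8 to 78.5). Both exons were thus present in some and absent from other isoforms of each library, and the first was present in most. A rarer exon of 120 bases (48922349 to 48922468) was in 2 of 50 DCRT-KO and 2 of 17 WT isoforms. The intron of 2622 bases behind the 122-base exon was retained in 4 isoforms and spliced in 9 in DCRT-KO, and retained in 3 and spliced in 6 in WT. Retention joins both exons into a single segment of 3096 bases, which GENCODE release 29 does not hold as an exon.

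The exon with the ARIH2 start codon was itself left out of isoforms in both libraries. Counting its 352-base and 3096-base forms together, and adding isoforms listed with it in acceptor or intron events, 36 DCRT-KO isoforms carried it and 15 skipped it, and in WT 13 carried it and 5 skipped it. A further DCRT-KO isoform used an acceptor at 48927579, past the start codon, which leaves 235 bases of the exon. The remaining 13 DCRT-KO and 6 WT isoforms were not listed for it. Skipping of the 352-base exon alone filled 7 rows of DCRT-KO and 4 of WT, and it took part in 10 and 4 of the mutually exclusive events.

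The 46-base exon was carried by a minority of listed isoforms in each library. It was in 13 of 47 DCRT-KO isoforms (27.7%, 15.6 to 42.6) and 6 of 15 WT isoforms (40.0%, 16.3 to 67.7). It is an exon of ENST00000452385, which GENCODE lists as a target of nonsense-mediated decay, the pathway that degrades messages whose stop codon is followed by exon junctions. Its length is not a whole number of codons. Inserted into ENST00000356401, it gave a first stop after 106 codons, with 12 exon junctions behind it. The 13 DCRT-KO isoforms with this exon comprised 7 that carried the start codon exon, 4 that skipped it and 2 not listed for it. The 6 WT isoforms comprised 3 that carried and 3 that skipped it. The 31-base exon was in 3 of 17 DCRT-KO isoforms, was not listed in WT, and in ENST00000356401 gave a stop after 101 codons. No isoform read as a whole frame below stopped after 101 codons.

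**Figure D3:**
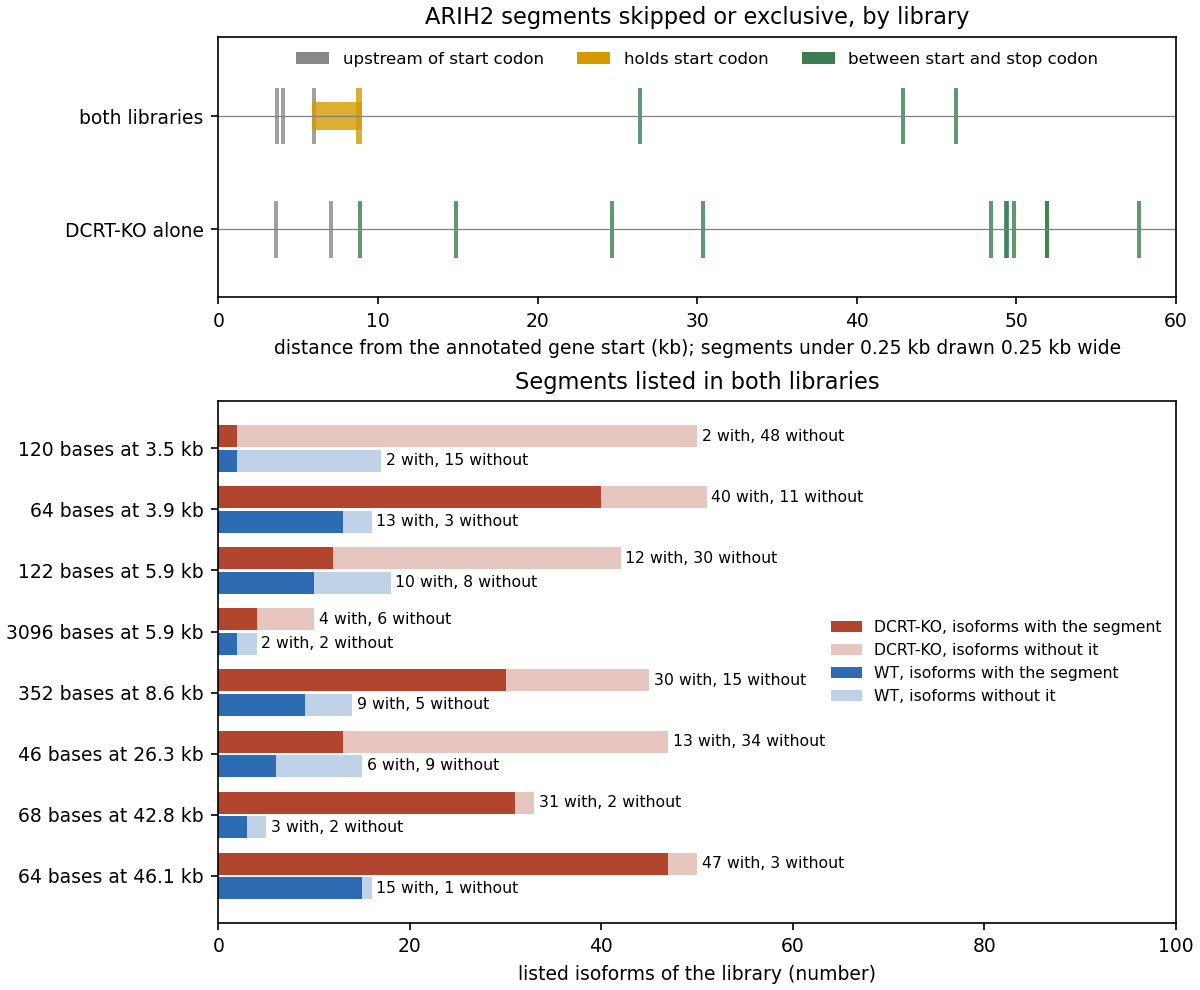
Top, segments of ARIH2 in skipping or mutually exclusive events by distance from the annotated gene start (kb), on a line for those listed in both libraries and a line for those in DCRT-KO alone, coloured by place relative to the start and stop codons. Bottom, number of listed isoforms with (dark) and without (pale) each of the 8 shared segments in either library; the 46-base exon is in 13 DCRT-KO and 6 WT isoforms and missing from 34 and 9.

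Coding exons further along ARIH2 were absent from 1 to 3 isoforms each, and the first 2 of them in both libraries. The 68-base exon was missing from 2 of 33 DCRT-KO and 2 of 5 WT isoforms and the 64-base exon at 48964919 from 3 of 50 and 1 of 16. The 3 annotated coding exons listed after them were skipped in DCRT-KO alone. The exon of 151 bases at 48967125 was missing from 2 of 45 isoforms, that of 122 bases at 48968534 from 2 of 45 and that of 110 bases at 48970595 from 1 of 47. None of these 5 exons holds a whole number of codons. Removed singly from ENST00000356401, they gave stops after 95, 184, 155, 201 and 247 codons in their order along the gene, each with at least 7 exon junctions behind it. In the isoforms themselves these losses could be combined: 1 DCRT-KO isoform lacked the 151-base and the 122-base exon together, which kept the frame and left 402 codons. No isoform read as a whole frame stopped after 155, 201 or 247 codons. Extra segments here were seen in DCRT-KO alone, such as an exon of 98 or 117 bases ending at 48968177 in 4 and 2 isoforms, and a donor at 48970841 that lengthens the 110-base exon in 3 isoforms.

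Several changes in ARIH2, each made alone in ENST00000356401, kept the reading frame open to the annotated stop. A donor at 48975048 in 1 DCRT-KO isoform added 69 bases and gave 516 codons. The 105 bases in capitals above were missing from 1 DCRT-KO isoform and present in 34, and their removal alone leaves 458 codons. The 99 bases removed only in WT were missing from 1 isoform and present in 15, and their removal alone leaves 460. No isoform read as a whole frame below had 458 or 460 codons. Neither stretch is an intron in GENCODE release 29. The first begins with GA and ends with AG, and the second begins with GA and ends with AA, where introns usually begin with GT and end with AG. Direct repeats of 5 and 4 bases lie at their ends, and for another unannotated stretch of 442 bases after the stop codon the ends were GT and AC with a repeat of 4 bases. The annotated intron of 2622 bases had GT and AG. The WT stretch is shown in capitals between its flanks.
Removed stretch of 99 bases, chr3:48979498-48979620 with flanks: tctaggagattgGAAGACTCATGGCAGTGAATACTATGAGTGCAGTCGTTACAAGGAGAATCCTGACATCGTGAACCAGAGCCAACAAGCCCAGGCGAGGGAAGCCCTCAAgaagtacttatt

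Isoforms were then read as whole reading frames. Of 48 DCRT-KO and 18 WT isoforms listed at the last variable acceptor, near the end of the coding region, 24 and 12 also carried the start codon exon. All listed differences of an isoform from ENST00000356401 were applied together, with unlisted parts taken as in that transcript. In DCRT-KO 9 isoforms kept 493 codons, 2 reached the annotated stop with 402 and 516 codons and 11 met an early stop. In WT 6 kept 493 codons, 0 had another length and 5 met an early stop. The early stops fell after 95 to 257 codons in DCRT-KO and after 95 to 184 in WT. The 46-base exon was present in 7 of the 11 and 3 of the 5. Out of all 24 and 12 isoforms, the share with an early stop was 45.8% (25.6 to 67.2) in DCRT-KO and 41.7% (15.2 to 72.3) in WT. These totals include 2 DCRT-KO isoforms and 1 WT isoform whose frame could not be read to a stop. They used an acceptor at 48981634, 26 bases ahead of the annotated one, whose added sequence was not used here. The added length is not a whole number of codons. In all, that acceptor was carried by 3 DCRT-KO isoforms and 1 WT isoform. It lies within an antisense gene, AC137630.2, on the minus strand.

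**Figure D4:**
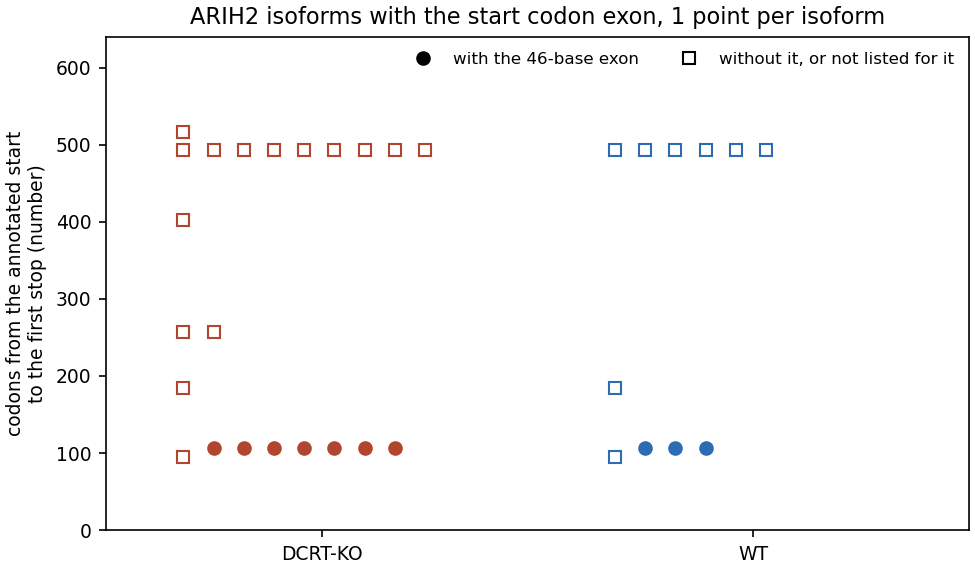
Codons from the annotated ARIH2 start to the first stop (y axis) for each isoform that carries the start codon exon and is listed at the last variable acceptor, 1 point per isoform, by library (x axis); filled circles carry the 46-base exon. In both libraries the points gather at 493 codons and at 106 codons, and the 10 circles are all at 106.

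No other gene of the pathway list held as many events as ARIH2 in either library, and GPS1 came nearest in WT with 30 against 35. The list held 14 RBR ligases, 13 cullins and partners, 10 neddylation genes, 3 conjugating enzymes and 12 regulators of cullin complexes. Of its 50 genes besides ARIH1 and ARIH2, 43 had an event, 26 with more in DCRT-KO, 15 with more in WT and 2 with equal numbers, and the median difference was 1 event. Over all 8028 genes 4205 had more in DCRT-KO and 3000 more in WT, and the median difference was also 1 event. A ratio of at least 1.5 was reached by 18 of the 43 with an event in favour of DCRT-KO (41.9%) and by 11 in favour of WT (25.6%), against 44.0% and 30.4% of all genes with an event. In favour of DCRT-KO the largest differences were those of COPS7B, a subunit of the COP9 signalosome that removes NEDD8 from cullins, with 16 events against 5. DCUN1D2, which helps attach NEDD8, had 11 against 1. RBCK1, an RBR ligase of the linear ubiquitin assembly complex, had 9 against 1, and its WT event named 0 isoforms of the library. In favour of WT they were the RBR ligase RNF144B with 6 events against 0, and the COP9 subunits GPS1 with 30 against 25 and COPS2 with 10 against 5. CUL4B, a cullin, differed by as many events as GPS1 and COPS2, with 6 against 1. CUL5, the cullin partner of ARIH2, had 1 event in DCRT-KO and 2 in WT. The conjugating enzyme UBE2L3 had 2 in each.

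ARIH1 stood apart from ARIH2 in having no listed event. No row of any other identifier lay within the ARIH1 span in either library. An event needs at least 2 forms, so the lists do not tell a gene spliced in 1 way from a gene that was not detected.

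The genes with numbers of events most like those of ARIH2 were taken over 10 values, the 5 types in each library, by Euclidean distance of log2(events + 1). They were MELK at a distance of 2.71, FRMD6 at 3.06, FANCI at 3.17, IGF2BP2 at 3.26 and HNRNPC at 3.30. MELK, the nearest, had 37 skipping and 9 mutually exclusive events in DCRT-KO and 23 and 5 in WT, and 58 and 35 events in all.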

How the data were processed

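The authors deposited tables of alternative splicing events for each library, with no measured values. Per the file headers each row holds splice positions, an event code, a gene identifier and the names of the isoforms on either side. Per the submitters' processing notes minimap2 and hg38 were used. The isoform builder, the event caller, filters and annotation release were not stated. The series text describes long reads, while the labels' protocols describe Illumina libraries, a conflict that was not settled. Per the labels the kits were strand-specific; whether strand was used in building isoforms was not stated. The antisense gene ARIH2OS overlaps the start of ARIH2.

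Rows were counted with Python 3.11.15 and scipy 1.17.1, and isoforms with and without a segment were pooled over rows. Reading frames used GENCODE release 29 transcripts. The row parser was tested on simulated data. ARIH2 and ARIH1, the gene lists and the settings were chosen with earlier results of these data known. Named genes are the 3 list members with the largest difference in each direction, ties by larger total, and the 5 genes nearest to ARIH2; CUL5, UBE2L3 and CUL4B, tied with GPS1 and COPS2, were named besides.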

Additional observations from a re-analysis of the deposited data

How the results depend on the processing

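With each position counted once, ARIH2 had 52 DCRT-KO and 19 WT events. Requiring library isoforms on both forms left 77 and 34, and taking every row inside the gene's span left 77 and 35. At least 2 library isoforms on each form left 28 in DCRT-KO and 5 in WT, a difference of 23 instead of 42, and 49 of 77 and 29 of 35 have 1 isoform on the rarer form. ARIH2 kept 36.4% and 14.3% of its events so, and all genes 13.0% and 11.3%. Shared positions then numbered 5, and counting any overlap of the same type gave 33 DCRT-KO positions. The pathway list then had 10 members with more events in DCRT-KO and 9 with more in WT, instead of 27 and 15. The same numbers over all genes are not given for this setting, so nothing is read from this change. The ratio of events, events per isoform and the share of mutually exclusive exons under these settings were added after seeing the data and stand beside their values. No difference in ARIH2 events turned its sign under these settings, and ARIH1 stayed at 0. No paired analysis was possible because each genotype has 1 library, and no library could be left out. Unknown depth limits every number of events and isoforms.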

Other observations

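The ARIH2 exons were searched on the transcript strand for TCTT and CTCTCT, short pyrimidine runs of the kind that PTBP1 binds, which do not contain each other. The 46-base exon held 0 TCTT, against 17.2% of the 605 internal GENCODE exons of that length with at least 1. The 31-base, 68-base, 64-base and 151-base exons also held 0, against 7.75%, 25.5%, 22.3% and 46.2% of internal exons of their lengths. The 122-base coding exon at 48968534 held 2 and the 110-base exon 1, against 42.7% and 39.0%. CTCTCT was found in the 151-base exon alone, at 2 overlapping places, against 3.78% of internal exons of that length. Introns, where PTBP1 sites often lie, were not used here, so these matches are no count of its sites.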
